A study of Mus musculus with 10 samples.

Results

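A set of 44 genes was higher with doxycycline (DOX) in 2 clones of MLL-AF9-i139 cells treated for 48 h and near its untreated level in the clone treated for 72 h. The members were chosen by their measured DOX ratios. For each clone, L was the log2 ratio of CPM with DOX to CPM without DOX, after 0.2 CPM had been added to each; CPM are counts divided by the total of their library and scaled alike in all libraries. Fold ratios of single clones are L on the linear scale, so they include the added 0.2 CPM and are somewhat nearer to 1 than quotients of the CPM printed beside them, most of all in genes of low level. A protein-coding gene was selected on an L of at least 1.2 (2.3-fold) in clones 1 and 2 and an L between -0.25 and 0.25 (within 1.19-fold) in clone 3, given a mean of at least 1 CPM over the 6 libraries. Of 52550 rows in the count table, 10676 were protein-coding genes with that mean level, and 45 of these met the limits. Dusp1, 1 of the 45, was left out by name. Cdkn2d and Bmf, also left out by name, did not meet the limit in clone 3, where their L was 0.29 and 0.26.

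The cells were hematopoietic stem and progenitor cells (HSPCs) from the bone marrow of WT C57BL/6 mice that had been transformed with retroviral MLL-AF9, a fusion oncogene of acute myeloid leukemia, and grown in culture. MLL-AF9-i139 clones carried tetR-KRAB, a repressor that DOX releases from DNA, and a lentiviral cassette that makes miR-139 once DOX is present, and MLL-AF9-ieGFP cells carried an inducible eGFP vector. The labels of MLL-AF9-ieGFP repeat the protocol for MLL-AF9-i139 and do not say apart from it whether these cells carry the repressor. Each of the 3 MLL-AF9-i139 clones, grown from a picked colony, was sequenced once untreated and once with DOX at 5 µg/mL, for 48 h in clones 1 and 2 and for 72 h in clone 3. The labels give no time for the untreated MLL-AF9-i139 cultures. The 4 MLL-AF9-ieGFP libraries come from 1 clone, untreated and with DOX at 5 µg/mL, at 48 h and at 72 h. Because clone 3 is also the one clone treated for 72 h, a property of that clone and the longer treatment cannot be told apart in these libraries.

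miR-139 is a microRNA: its mature strands guide Argonaute proteins to messenger RNAs whose 3′ UTR pairs with the seed, and such messages are usually lowered. Genes that rise after a microRNA is induced are therefore mostly read as downstream of its targets rather than as targets. In MLL-AF9 leukemia the fusion protein keeps myeloid progenitors in cycle and holds back their maturation, and maturing myeloid cells gain surface receptors, innate sensors and regulators that restrain growth.

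The agent that DOX switches on is shown first, with its seed (bases 2 to 8) in capitals, as the RefSeq sequences of GRCm38.p6, which lie on the plus strand of chromosome 7 at chr7:101475382-101475403 for miR-139-5p and chr7:101475418-101475439 for miR-139-3p.
miR-139-5p: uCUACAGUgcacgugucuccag
miR-139-3p: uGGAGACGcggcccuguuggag

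The 7 bases that pair with the miR-139-5p seed, ACTGTAG, occurred in the longest annotated 3′ UTR of 10 of the 44 genes (22.7%), against 1480 of 10617 expressed protein-coding genes with a 3′ UTR (13.9%). CGTCTCC, which pairs with the miR-139-3p seed, occurred in 1 (Spred3, 2.27%) against 473 (4.46%). The 10 were Ccdc152, Cd28, Cd93, Crebrf, D16Ertd472e, Ddit4, Mxd1 (with 2 matches), Nfil3, Plcl1 and Zbtb4. Members and expressed genes had a like median 3′ UTR length, 1312 and 1350 bases. So 33 of the 44 held neither seed match, and the 11 that did were higher in clones 1 and 2 as the rule requires. The match and its flanks are printed for 3 regulators described further on, to show sites in messages that were higher and not lower with DOX, with the pairing bases in capitals and on the minus strand of GRCm38. Ddit4 holds it at chr10:59950290-59950312, Mxd1 at chr6:86648826-86648848 and Nfil3 at chr13:52967382-52967404.
Ddit4: ccctcagtACTGTAGcatgaaac
Mxd1: tgaccaaaACTGTAGcttttggg
Nfil3: gtcatttcACTGTAGtgtgcaca
A letter match is a description of the sequence and not a measured site.

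The libraries held between 35133308 and 47089725 counts, so that 3 counts in a library correspond to at most 0.0854 CPM. The noncoding gene Gm26917 alone took between 9.06% and 13.4% of a library. Mir139 was listed at 0 in all 10 libraries, so that induction of the microRNA in clone 3, or in any clone, could not be checked from these counts. Of 13 myeloid progenitor genes, Kit lay between 135 and 167 CPM and Myb between 365 and 483 CPM. Flt3 lay between 2.71 and 8.32 CPM, and Cd34 (at most 0.434 CPM) and Itgam, the gene of CD11b, were at or near 0 in every library. The paper reports CD11b on MLL-AF9 cells by flow cytometry, so these counts do not tell whether the protein was present. In clones 1, 2 and 3, L was 1.66, 1.03 and 1.55 for Mpo, 0.79, 0.625 and 0.54 for Ctsg and 1.80, 1.48 and 0.35 for Fcgr3. It was -0.25, -0.37 and 0.44 for Elane and -0.50, -0.84 and 0.07 for Prtn3. Hoxa9 and Hoxa10 were lower with DOX in the 3 clones. Meis1 was lower in clones 1 and 3, with an L of -0.01 in clone 2. In MLL-AF9-ieGFP at 48 h and 72 h, L was 0.44 and 0.51 for Mpo and 0.07 and 0.33 for Ctsg. It was 0.17 and 0.39 for Elane, 0.02 and 0.25 for Prtn3 and -0.05 and -0.07 for Fcgr3. For Hoxa9 it was 0.09 and -0.14, for Hoxa10 -0.05 and -0.26 and for Meis1 0.13 and -0.15. The summed level of 14 lymphoid markers was at most 2.11 CPM and that of 13 erythroid and megakaryocyte markers at most 5.10 CPM in any library. Of 14 monocyte and macrophage markers, C1qa and C1qc were at 0 in every library. These summed levels were 395, 459 and 447 CPM without DOX and 346, 355 and 466 CPM with DOX in clones 1, 2 and 3, and Ly6c2 made up most of each. The median L of the 9 such markers at a mean of at least 1 CPM was 0.76, 0.94 and 0.06 in the 3 clones, the opposite direction to the sums in clones 1 and 2. For 9 neutrophil markers it was 0.38, 0.89 and 0.83, and the summed level of the 12 listed went from 264, 197 and 172 CPM to 477, 438 and 278 CPM. The part that a shift in maturation state has in the levels of the 44 genes was not tested, and in bulk RNA fewer cells of a kind and less RNA per cell cannot be told apart.

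Across the expressed protein-coding genes, an L of at least 1.2 was reached by 338 genes (3.17%) in clone 1, by 350 (3.28%) in clone 2 and by 44 (0.412%) in clone 3. The spread of L over these genes was also narrower in clone 3, with an SD of 0.28 against 0.56 and 0.57. Both 48 h clones reached the limit in 263 genes. Among the 263, the genes that stayed level in clone 3 were a minority: 45 (17.1%) lay within 0.25 of 0, 181 (68.8%) had an L between 0.25 and 1.2, 27 (10.3%) an L of at least 1.2, and 10 (3.8%) an L under -0.25. The limits cut the 44 genes from a run of values that continues on both sides. Of the 52 genes whose L was at most -1.2 in clones 1 and 2, 19 (36.5%) stayed level in clone 3.

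**Figure D1:**
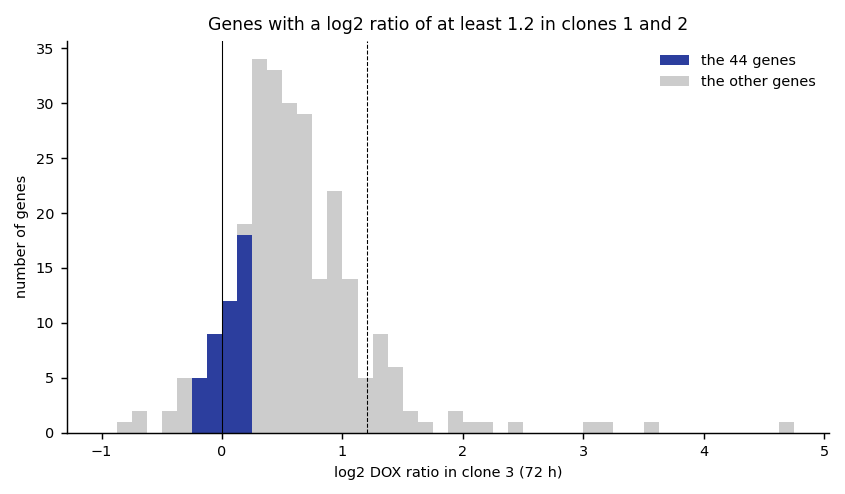
Number of genes (vertical axis) by their log2 DOX ratio L in clone 3 at 72 h (horizontal axis), for the 263 genes with an L of at least 1.2 in both clones treated for 48 h. The 44 genes, in blue, fill the bars within 0.25 of 0 except for 1 gene left out by name, the other genes are grey, and the dashed line marks 1.2: most of the 263 lie between the blue bars and that line.

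The median L of the 44 genes was 1.53 in clone 1, 1.57 in clone 2 and 0.10 in clone 3. Their L in clone 3 ran from -0.24 to 0.25 and lay above 0 in 30 genes and below 0 in 14. These values chose the members and are given as a description. The size of the rise was similar in the 48 h clones, with L larger in clone 1 for 20 genes and in clone 2 for 24. It passed 2 in both for 7 genes: Pald1, Gas7, Plekhg5, Zbp1, Hcar2, Tmem71 and Ddit4. In MLL-AF9-ieGFP the median L was -0.02 at 48 h and -0.10 at 72 h, values the rule did not use, and 0 of the 44 reached 1.2 at either time. The background there was 3 of 10676 genes at each time (0.0281%), so that a count of 0 among 44 is what the rest of the genes show too.

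**Figure D2:**
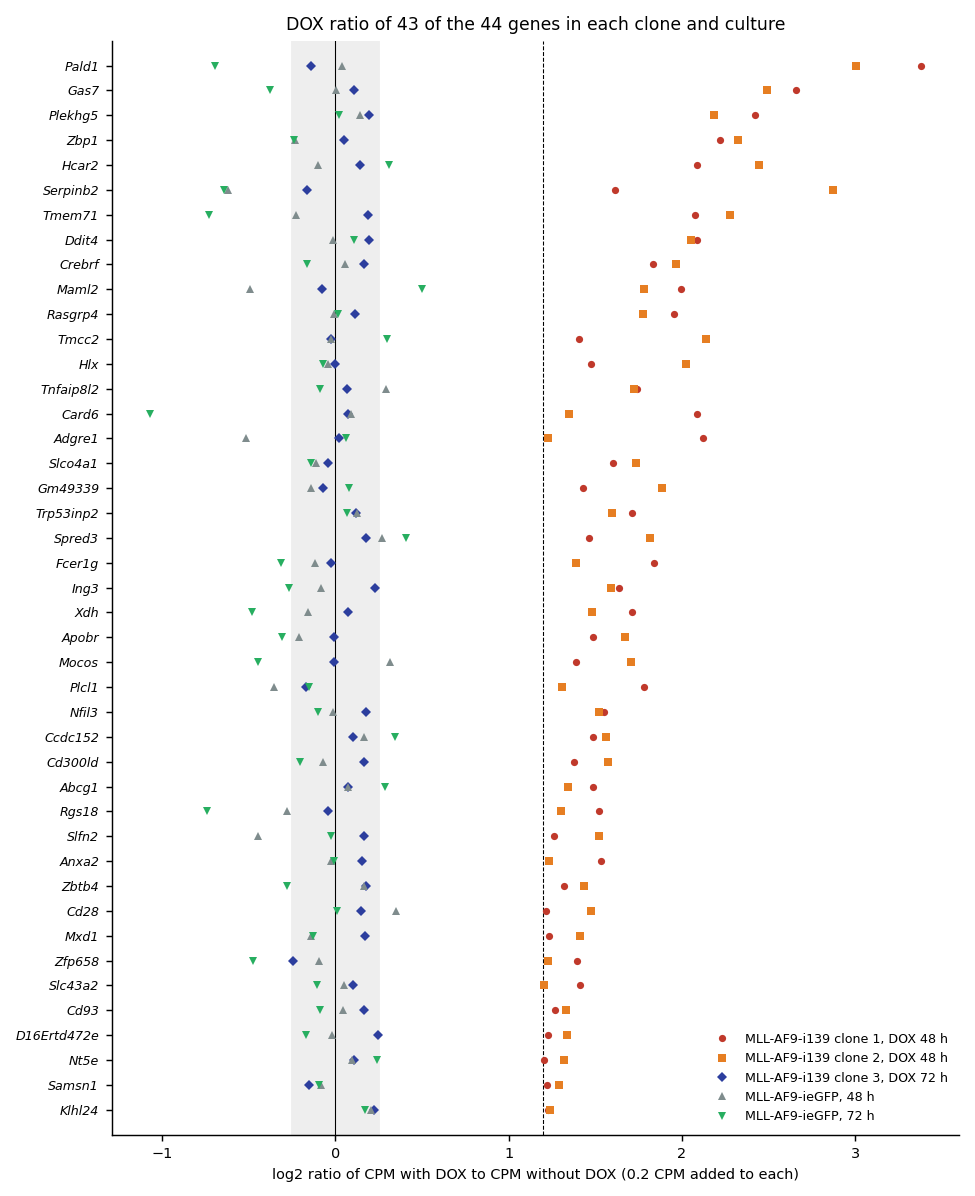
Log2 ratio of CPM with DOX to CPM without DOX (0.2 CPM added to each) for 43 of the 44 genes, ordered by the mean of clones 1 and 2, in the 3 MLL-AF9-i139 clones and at 2 times in MLL-AF9-ieGFP; each point is 1 pair of libraries. Red circles and orange squares lie right of the dashed line at 1.2 by the choice of the genes, blue diamonds lie in the grey band from -0.25 to 0.25, and the MLL-AF9-ieGFP triangles lie between -1.07 and 0.50.

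Exact 95% binomial intervals of the clone 3 log2 ratio had a median width of 0.43, nearly that of the band from -0.25 to 0.25 in which the rule placed them, and the widest, that of Plcl1 with 7 counts in treated clone 3, was 3.25. Whether a single member lay inside that band is thus uncertain for many of the genes by counting alone. The intervals cover counting error only and not the spread between cultures, and PCR copies are not independent molecules. The mean level over the 6 libraries ran from 1.02 CPM (Tmcc2) to 350 CPM (Cd93) with a median of 14.5 CPM, and 13 genes lay under 5 CPM.

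Genes that restrain growth or belong to stress responses formed the first group. Ddit4, which encodes the mTORC1 inhibitor REDD1, stood at 17.7, 16.4 and 15.7 CPM without DOX in clones 1, 2 and 3 and at 75.9, 68.8 and 17.9 CPM with DOX. With 0.2 CPM added, the ratios were 4.25-fold and 4.15-fold in clones 1 and 2, and the treated clone 3 library differed little from the untreated ones. In MLL-AF9-ieGFP the 4 values lay between 17.6 and 19.2 CPM. Mxd1, a partner of MAX that opposes MYC at shared DNA sites, went from 79.3, 68.03 and 67.4 CPM to 186, 182 and 75.9 CPM. Crebrf, a regulator of CREB3 in the response to stress of the endoplasmic reticulum, went from 10.98, 9.62 and 10.6 CPM to 39.6, 38.1 and 11.9 CPM. Each of these 3 more than doubled in clones 1 and 2 and moved by at most 1.14-fold in clone 3. Trp53inp2, which takes part in autophagosome formation, was measured at 11.3, 9.78 and 9.05 CPM without and 37.4, 29.9 and 9.84 CPM with DOX. Spred3, an inhibitor of Ras to ERK signalling, was lower, at 1.91, 1.35 and 1.86 CPM and then 5.61, 5.25 and 2.13 CPM. Klhl24, an adaptor of cullin ubiquitin ligases, had ratios of 2.34-fold and 2.36-fold in clones 1 and 2 and of 1.17-fold in clone 3. For Slfn2, a gene tied to quiescence of T cells and monocytes, the ratios were 2.39-fold, 2.87-fold and 1.12-fold.

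The second group comprised genes of innate sensing and its control. Zbp1 encodes a sensor of Z-form nucleic acids that can start necroptosis, and its level was 1.25, 1.21 and 1.26 CPM without DOX and 6.57, 6.86 and 1.31 CPM with DOX. Its untreated libraries and treated clone 3 lay between 1.21 and 1.31 CPM, and the ratios in clones 1 and 2, with 0.2 CPM added, were 4.66-fold and 4.99-fold. Card6, a protein with a caspase recruitment domain, had 0.828, 1.08 and 1.24 CPM and then 4.16, 3.05 and 1.31 CPM. Tnfaip8l2, also called TIPE2 and known as a brake on innate and T cell responses, had 4.69, 4.95 and 5.22 CPM and then 16.1, 16.8 and 5.47 CPM, with all untreated and clone 3 libraries between 4.69 and 5.47 CPM. Hcar2, a Gi-coupled receptor for niacin and ketone bodies, had 0.786, 0.4498 and 1.01 CPM and then 3.99, 3.33 and 1.13 CPM. These 4 genes were low in the untreated cells, at most 5.22 CPM.

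Receptors of the myeloid surface and their adaptors were the third group, and held the most abundant member. Cd93, a C-type lectin-like receptor of progenitors, monocytes and endothelium, went from 236, 241 and 211 CPM to 568, 608 and 237 CPM. Fcer1g, the gamma chain through which several Fc receptors signal, went from 25.02, 36.6 and 44.6 CPM to 89.9, 96.2 and 43.7 CPM; treated clone 3 fell slightly below untreated clone 3, which was itself the highest of the untreated libraries. Cd300ld, an activating receptor of the CD300 family, went from 12.9, 13.2 and 10.9 CPM to 33.7, 39.7 and 12.3 CPM. Adgre1, which encodes the macrophage antigen F4/80, went from 2.04, 1.44 and 0.781 CPM to 9.54, 3.63 and 0.797 CPM. It was the one member found on any of the 16 gene and marker lists used here, and the L of clones 1 and 2 differed more in it than in any other member except Serpinb2. Cd28, known as a costimulatory receptor of T cells, had ratios of 2.33-fold and 2.78-fold in clones 1 and 2 and of 1.11-fold in clone 3. Gm49339 had 1.19, 0.765 and 1.01 CPM and then 3.53, 3.36 and 0.951 CPM, but 98.9% of its exon bases lie in Lilrb4a or Lilr4b on the same strand, which were both listed at 0, so that its counts cannot be assigned to 1 gene of this locus.

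Signalling proteins inside the cell were the fourth group. Rasgrp4, an exchange factor that loads Ras with GTP in mast and myeloid cells, went from 5.69, 4.81 and 4.59 CPM to 22.6, 16.98 and 4.99 CPM. Plekhg5, a guanine nucleotide exchange factor, went from 1.57, 1.51 and 5.01 CPM to 9.299, 7.54 and 5.76 CPM, and here clone 3 was above the other untreated clones to begin with. Plcl1, a relative of phospholipase C without catalytic activity, was at 0.786, 0.8996 and 0.227 CPM and then 3.19, 2.52 and 0.1799 CPM, the lowest clone 3 values of the set. Pald1 encodes paladin, a protein with phosphatase-like domains, and had the largest ratios of the 44 genes. Its level was 2.15, 1.102 and 1.44 CPM without DOX and 24.2, 10.2 and 1.28 CPM with DOX. The ratios with 0.2 CPM added were 10.4-fold and 8.02-fold in clones 1 and 2 and 0.907-fold in clone 3. Rgs18, which speeds the GTPase of G alpha subunits in platelets and myeloid cells, had ratios of 2.86-fold, 2.46-fold and 0.971-fold. Samsn1, an adaptor with SH3 and SAM domains, had 2.33-fold, 2.44-fold and 0.899-fold, and its clone 3 interval lay wholly below 0.

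Transcription and chromatin regulators were the fifth group. Hlx, a homeobox factor of hematopoietic progenitors, was at 10.8, 7.89 and 9.098 CPM without DOX and 30.2, 32.6 and 9.07 CPM with DOX, and its L in clone 3 was the nearest to 0 of all members (-0.0042). Maml2, a coactivator of Notch, went from 1.13, 0.922 and 0.5796 CPM to 5.07, 3.66 and 0.5396 CPM. Ing3, a histone reader of the NuA4 acetyltransferase complex, went from 28.01, 28.2 and 26.5 CPM to 87.5, 85.1 and 31.1 CPM. Nfil3, a basic leucine zipper repressor, went from 4.84, 3.598 and 10.4 CPM to 14.6, 10.7 and 11.8 CPM. Treated clone 3 thus lay between the treated clones 1 and 2, and Nfil3 was the one member in which the clone 3 libraries overlapped with these. Zbtb4, a zinc finger protein that binds methylated DNA, was 2.495-fold and 2.701-fold higher, and 1.13-fold in clone 3. For the zinc finger gene Zfp658 the ratios were 2.63-fold, 2.34-fold and 0.844-fold, at levels of at most 2.56 CPM.

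Transporters and enzymes were the sixth group. Slco4a1, an organic anion transporter, went from 60.5, 64.3 and 69.3 CPM to 184, 215 and 67.3 CPM, with 8 of the 10 libraries between 50.6 and 69.3 CPM. Xdh, which oxidises hypoxanthine and xanthine to uric acid, went from 11.2, 9.71 and 16.3 CPM to 37.3, 27.4 and 17.2 CPM. Mocos, the sulfurase that activates the molybdenum cofactor of that enzyme, had the same pattern at a lower level, from 1.27, 0.697 and 0.983 CPM to 3.66, 2.73 and 0.977 CPM. Abcg1, which exports cholesterol to lipoprotein particles, went from 37.3, 35.2 and 29.99 CPM to 105, 89.7 and 31.6 CPM. Apobr, a macrophage receptor for lipoproteins that carry apolipoprotein B, went from 13.3, 12.3 and 11.6 CPM to 37.5, 39.8 and 11.5 CPM. In these 2 genes of lipid handling the clone 3 libraries differed by less than 2 CPM from each other and lay below the untreated libraries of clones 1 and 2. Nt5e, the ectoenzyme CD73 that makes adenosine from AMP, was 2.3-fold and 2.498-fold higher, and 1.08-fold in clone 3. Slc43a2, a transporter of large neutral amino acids, had ratios of 2.66-fold, 2.30-fold and 1.07-fold.

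The remaining members have cytoskeletal, protease inhibitor or less known roles. Gas7, a growth arrest gene whose product binds actin and membranes, was at 4.57, 5.22 and 14.6 CPM without DOX and 29.9, 30.2 and 15.8 CPM with DOX. Serpinb2, also called plasminogen activator inhibitor 2, was at 6.498, 6.005 and 11.04 CPM and then 20.3, 45.2 and 9.84 CPM, so that the treated clones differed by over 2-fold from each other. Tmem71 went from 2.76, 2.14 and 2.14 CPM to 12.3, 11.1 and 2.47 CPM. Tmcc2 went from 0.637, 0.292 and 0.605 CPM to 2.02, 1.97 and 0.591 CPM. Ccdc152 was at 1.49, 1.17 and 1.18 CPM and then 4.53, 3.84 and 1.28 CPM. It overlaps Selenop on the opposite strand over 32.3% of its exon bases, and whether counting used the strand is not given in the sources used here; Selenop itself had an L of 2.53, 2.24 and 0.71 in the 3 clones. Anxa2, a calcium-dependent phospholipid binder, had ratios of 2.90-fold, 2.35-fold and 1.11-fold. D16Ertd472e had 2.35-fold, 2.53-fold and 1.19-fold. The 11 genes given by their ratios alone, and Cd93 and Mxd1, were among the 14 with the smallest mean rises.

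**Figure D3:**
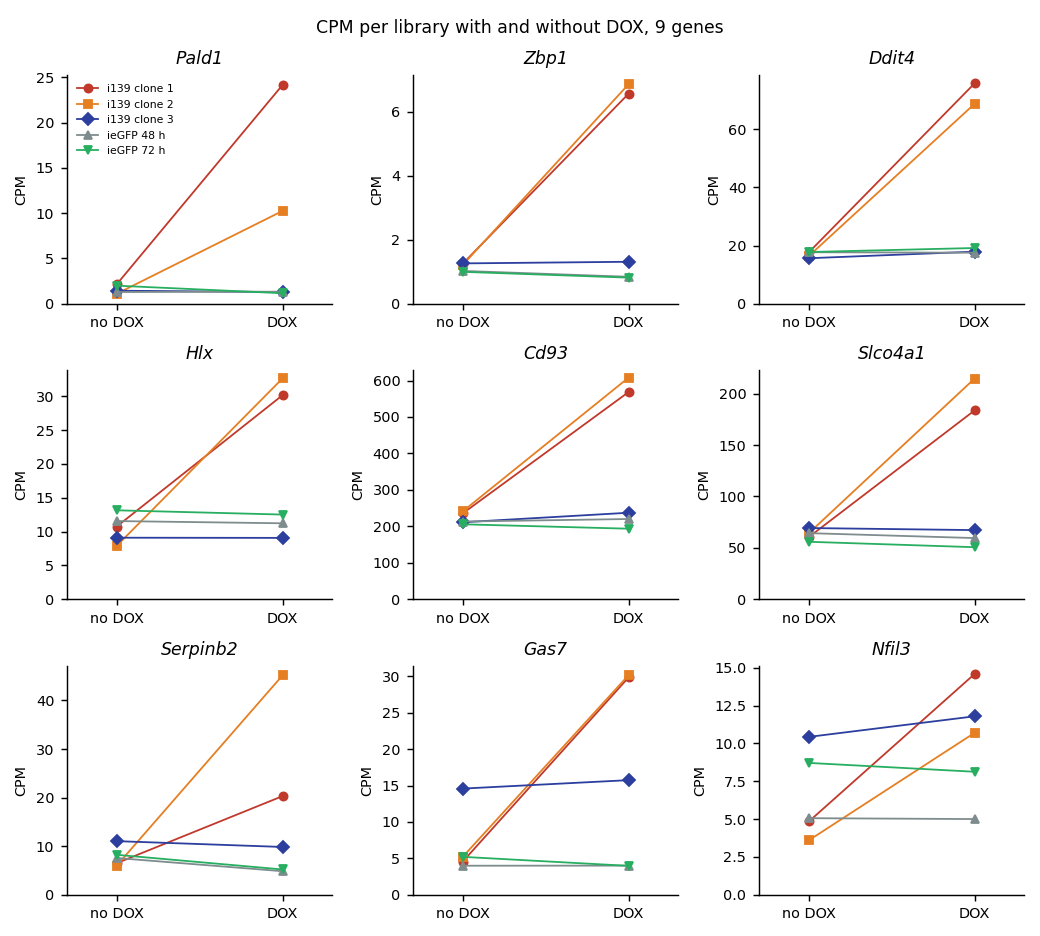
CPM (vertical axes, from 0, linear) without and with DOX for 9 of the genes; each line joins the 2 libraries of 1 clone or culture. The red and orange lines of clones 1 and 2 climb in every panel. The blue line of clone 3 runs nearly level, as do the MLL-AF9-ieGFP lines except in Serpinb2, where they fall. In Gas7, Nfil3 and Serpinb2 the blue line starts above the others, and in Slco4a1 and Zbp1 slightly so.

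The untreated libraries show where clone 3 began. A high starting level was uncommon: untreated clone 3 lay within 1.5-fold of the mean of untreated clones 1 and 2 in 36 of the 44 genes (81.8%), against 93.6% of the expressed protein-coding genes. It lay below both of the other clones in 16 genes, above both in 14 and between them in 14, and the median log2 difference was -0.02. In 3 genes (6.82%) it was over 2-fold above, against 106 of 10676 genes (0.993%). These 3 were Gas7, Plekhg5 and Nfil3, at 1.54, 1.58 and 1.27 on the log2 scale. Plcl1 was the one gene over 2-fold below, at -1.29. A gene enters the set only if clone 3 does not change, so a shifted starting level in clone 3 and membership are linked through the untreated clone 3 library, and these shares are given without a test. With DOX, clone 3 was below the mean of clones 1 and 2 in all 44 genes, by a median of -1.55 on the log2 scale and between -3.55 (Pald1) and -0.10 (Nfil3). Both clone 3 libraries lay below both treated libraries of clones 1 and 2 in 43 genes, against 39.2% of the expressed protein-coding genes, and all 4 MLL-AF9-ieGFP libraries did so in 44, against 37.4%. Treated clones 1 and 2 were selected to be high in these genes, so nothing is read from either count.

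**Figure D4:**
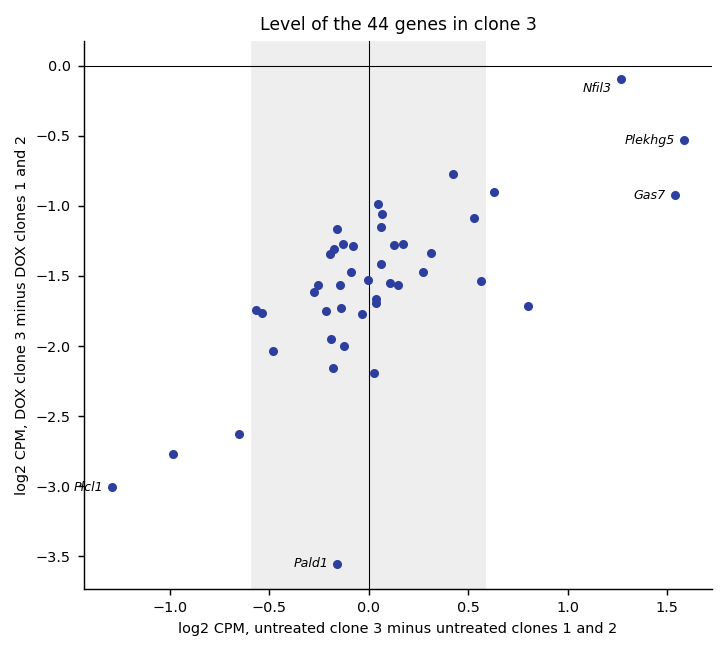
Each point is 1 of the 44 genes: the log2 CPM of clone 3 minus the mean of clones 1 and 2, without DOX (horizontal axis) and with DOX (vertical axis), with the range within 1.5-fold shaded. Most points lie in the shaded band and between about -1 and -2 on the vertical axis; Gas7, Plekhg5 and Nfil3 lie to the right.

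MLL-AF9-ieGFP cells gave a test that the choice of genes did not touch, namely whether DOX itself moved these genes where it induced eGFP. No member passed it in the fit without a block for culture time. With edgeR's quasi-likelihood test and Benjamini-Hochberg adjustment, 0 of 44 members and 0 of 17757 genes (0%) were called at an adjusted p under 0.05. This fit did not pair cultures of the same time, so the change from 48 h to 72 h was part of its spread. At an unadjusted edgeR p under 0.05 there were 3 members (6.82%), all lower, and 277 genes (1.56%). DESeq2 called 0 members and 4 genes. The p-values rest on 2 cultures per condition from 1 clone, at 48 h and at 72 h, and so measure the spread between these cultures and not between clones. The median log2 fold change was -0.07 over the members and 0.00 over all genes, with 14 members above 0. Serpinb2 was at 7.57 and 8.23 CPM without DOX and 4.85 and 5.21 CPM with DOX at 48 h and 72 h, and both treated cultures lay below both untreated ones. Its edgeR log2 fold change was -0.65 (SE 0.17, adjusted p = 1). Rgs18 went from 7 and 8.31 CPM to 5.74 and 4.89 CPM, with a log2 fold change of -0.52 (SE 0.18, edgeR adjusted p = 1). Xdh went from 16.6 and 20.2 CPM to 14.9 and 14.4 CPM, with a log2 fold change of -0.33 (SE 0.14, edgeR adjusted p = 1), which was -0.16 without the untreated 72 h culture and -0.48 without the untreated 48 h culture. The values of these 3 were thus lower with DOX in MLL-AF9-ieGFP while all 3 were higher with DOX in clones 1 and 2. With the culture time as a block, which pairs cultures of the same time, edgeR called 123 genes and 2 of the members (4.55%). These were Serpinb2 (adjusted p = 0.000371) and Rgs18 (adjusted p = 0.0174), both lower. An unadjusted edgeR p under 0.05 was reached with that block by 11 members (25%), 3 of them higher, and by 1407 genes (7.92%).

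The same 4 libraries also show how the members differed between 48 h and 72 h of culture in the MLL-AF9-ieGFP clone. The time of 72 h is also that of treated clone 3. The 2 libraries of each time are the untreated and the DOX culture of 1 clone. The p-values thus measure the spread between these cultures and not between clones. Between 48 h and 72 h, edgeR called 1322 of 17757 genes (7.44%), 540 higher and 782 lower at 72 h, and 3 of 44 members (6.82%), a share near that of all genes. Nfil3 rose from 5.06 and 5.00 CPM at 48 h to 8.71 and 8.13 CPM at 72 h, without and with DOX, a log2 change of 0.78 (SE 0.13, edgeR adjusted p = 0.00219). Slc43a2 rose from 64.7 and 67.0 CPM to 81.7 and 76.1 CPM, a log2 change of 0.30 (SE 0.06, edgeR adjusted p = 0.00918). Nt5e fell from 49.5 and 52.9 CPM to 35.6 and 42.2 CPM, a log2 change of -0.36 (SE 0.08, edgeR adjusted p = 0.015), which was -0.23 without the untreated 72 h culture. In each of the 3 genes the 48 h and 72 h values did not overlap. Slco4a1 and Klhl24 were next by unadjusted p, with log2 changes of -0.18 (SE 0.07) and -0.25 (SE 0.10) and edgeR adjusted p-values of 0.135 and 0.137. The member median was -0.04 against 0.00 over all genes, and 17 members were above 0. Nfil3 is also the member whose clone 3 libraries overlapped with treated clones 1 and 2; the untreated clone 3 culture has no time in its label. All 3 calls were lost without the untreated 72 h culture, where edgeR called 0 members and 247 genes. Without the untreated 48 h culture it called 2 members and 770 genes. With DOX status as a block, 2512 genes and 4 members were called.

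**Figure D5:**
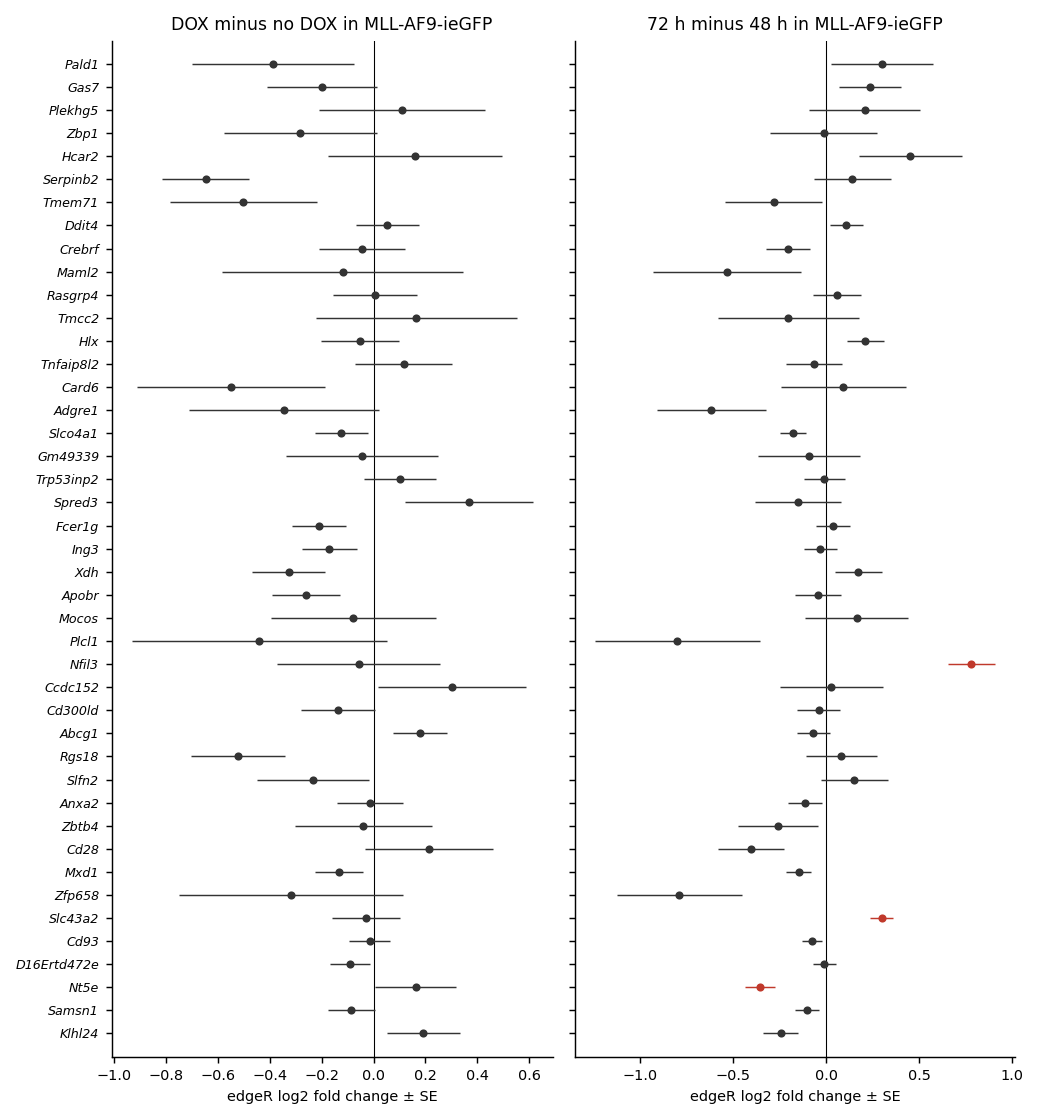
Log2 fold changes ± SE from edgeR, without a block, for 43 of the 44 genes in the 4 MLL-AF9-ieGFP libraries, for DOX minus no DOX (left) and for 72 h minus 48 h (right). Red points are those with an adjusted p under 0.05: 0 on the left, and Nfil3, Slc43a2 and Nt5e on the right.

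For the DOX contrast over the 3 MLL-AF9-i139 clones, which the choice of genes used, only counts are given. With clone 3 in the fit, edgeR called 12 of 19223 genes (0.0624%) and 0 of the 44. An unadjusted edgeR p under 0.05 was reached by 41 of the 44 (93.2%) and by 3959 of all genes (20.6%). DESeq2 called 1556 genes and 38 of the 44. Without clone 3, edgeR called 3981 genes and all 44. With the clone as a block, 2381 genes and 17 of the 44 were called. The rule fixes the difference between clone 3 and the other clones, so nothing about the members is read from these counts.

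Other pathways give the setting of the 44 genes in the same clones. Of 21 lysosome and autophagy genes, 19 were at a mean of at least 1 CPM, with a median L of 0.61, 0.58 and 0.18 in clones 1, 2 and 3. For 18 FOXO and quiescence genes it was 0.49, 0.58 and 0.12, for 15 p53 targets 0.30, 0.43 and 0.03, and for 16 proliferation genes -0.35, -0.41 and -0.12. For 13 NF-kB and TNF response genes it was 0.61, 0.35 and 0.11, for 9 interferon response genes 0.42, 0.40 and 0.24, and for 13 hypoxia response genes 0.25, 0.26 and 0.19. For 15 immediate early genes it was 0.16, 0.26 and 0.05, and for 11 circadian and glucocorticoid response genes 0.23, 0.26 and 0.13. All 9 lists had medians nearer to 0 in clone 3 than in clones 1 and 2, beside medians of -0.02, 0.02 and 0.02 over the 10676 genes, and none of the 9 holds a member. In MLL-AF9-ieGFP, edgeR called 0 genes of any of the 9 lists with DOX. That fit called 0 of all 17757 genes, so nothing about the lists is read from this count. Between 48 h and 72 h edgeR called 1322 of the 17757 genes (7.44%). Among the lists it called 6 of 22 immediate early genes higher and 1 lower at 72 h, and 3 of 16 proliferation genes higher. For 13 hypoxia response genes the calls were 3 higher and 1 lower, and 2 of 16 p53 targets were higher. It called 1 gene each of the lysosome and circadian lists higher and of the FOXO and interferon lists lower, and 0 of 15 NF-kB genes. Of the marker lists it called 0 genes with DOX, and at 72 h it called 4 of 10 neutrophil markers, 3 of 11 progenitor markers and 1 of 6 mast cell, basophil and eosinophil markers higher, 1 of 4 dendritic cell markers lower and 0 of 9 monocyte and macrophage markers. In the 3 clones the median L was -0.11, -0.06 and 0.20 for 11 progenitor markers, 0.78, 0.30 and -0.17 for 4 mast cell, basophil and eosinophil markers and -0.07, -0.21 and -0.13 for 3 dendritic cell markers.

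The 44 genes lie on 16 chromosomes. Chromosome 1 holds 7 of them (15.9%), against 5.70% of the expressed protein-coding genes, and these 7 (Plcl1, Cd28, Serpinb2, Tmcc2, Rgs18, Fcer1g and Hlx) are each over 4 Mb apart. Only Rasgrp4 and Spred3 are closer than 1 Mb, with 4868 bases between them on chromosome 7. Exons overlapped another gene by over 10% in 5 members: Gm49339 and Ccdc152, given above, Rasgrp4 (18.2%, with Fam98c and Gm16282), Apobr (14.4%, with Cln3 and Il27) and Serpinb2 (12.4%, with Serpinb10 on the same strand). Serpinb10 had an L of 1.18, 2.53 and 0.55 in the 3 clones, Cln3 of 0.83, 0.84 and 0.09 and Fam98c of 0.57, 0.47 and 0.27. No exon base was shared in 33 members.

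Promoter windows from 250 bases before to 50 after the start were at hand in RefSeq (GRCm38.p6) for 28 of the 44 genes, 37 windows in all. The letters of 5 motifs were searched on both strands. GAGGAAGT, the core of PU.1 sites, was in 4 of 37 windows (10.8%) against 333 of 10880 windows of expressed protein-coding genes (3.06%) and 3.20% of all windows. TGANTCA, the AP-1 motif, was in 4 (10.8%, against 4.81% and 7.81%), 2 of which are overlapping windows of Serpinb2. TTGCNNAA, part of C/EBP sites, was in 4 (10.8%, against 8.30% and 10.8%), 2 of which are the same overlapping windows of Serpinb2. CACGTG, the E-box of MYC and MAX, was in 2 (5.41%, against 10.1% and 7.15%), and GTAAACA, the FOXO motif, in 1 (2.70%, against 2.51% and 3.65%). These are counts of letters in few windows, with no test. The PU.1 core was in Apobr, Cd300ld, Maml2 and Samsn1. The windows of 3 of these are printed because they hold the motif whose share differed most from that of the other genes, with motif letters in capitals: Apobr at chr7:126584758-126585057 (plus strand, with TGAGTCA as well), Cd300ld at chr11:114989837-114990136 (minus strand) and Samsn1 at chr16:75909217-75909516 (minus strand, with a match on each strand).
Apobr: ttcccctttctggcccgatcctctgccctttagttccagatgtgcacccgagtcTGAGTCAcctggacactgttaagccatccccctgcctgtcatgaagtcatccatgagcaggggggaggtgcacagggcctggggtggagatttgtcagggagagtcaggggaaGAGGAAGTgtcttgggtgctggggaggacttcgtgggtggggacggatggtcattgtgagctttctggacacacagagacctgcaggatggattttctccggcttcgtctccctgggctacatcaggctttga
Cd300ld: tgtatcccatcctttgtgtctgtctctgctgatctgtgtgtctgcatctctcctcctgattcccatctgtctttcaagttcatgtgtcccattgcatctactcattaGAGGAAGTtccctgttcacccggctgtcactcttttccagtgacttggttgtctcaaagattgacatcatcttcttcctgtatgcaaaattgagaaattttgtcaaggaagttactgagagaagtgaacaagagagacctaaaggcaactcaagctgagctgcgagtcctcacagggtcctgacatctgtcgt
Samsn1: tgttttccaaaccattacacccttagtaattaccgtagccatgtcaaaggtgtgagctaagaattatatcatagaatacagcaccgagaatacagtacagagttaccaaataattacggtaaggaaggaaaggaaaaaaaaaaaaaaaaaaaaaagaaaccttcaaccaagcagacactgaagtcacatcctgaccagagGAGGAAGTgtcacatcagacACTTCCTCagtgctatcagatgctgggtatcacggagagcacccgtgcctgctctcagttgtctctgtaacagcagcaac

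At the limits of the rule, neighbours differed little. Nt5e and Slc43a2 were the last inside, with a smaller L of 1.202 and 1.204, and Ccng2, Arhgap24 and Rras lay just outside at 1.19, 1.19 and 1.18. In clone 3, D16Ertd472e, Zfp658 and Ing3 were inside at 0.25, -0.24 and 0.23, and Tespa1, Pik3r5 and Plaur were outside at 0.25, 0.25 and -0.25. Of the genes just under the minimum mean level, Brdt lay at 0.918 CPM, Rd3 at 0.808 CPM and Cttnbp2nl at 0.685 CPM, beside Tmcc2 at 1.02 CPM, Zfp658 at 1.25 CPM and Plcl1 at 1.3 CPM inside.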

How the data were processed

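Ribosomal RNA was depleted before sequencing; the authors mapped reads to GRCm38 with STAR 2.5.3e, counted them per gene with FeatureCounts 1.6.0 on GENCODE (strand setting not given in the sources used here) and deposited raw counts, with 0 differing values between their 2 tables. Another 14 columns belong to other samples and were not used. Members and lists were chosen with earlier results of these data known. CPM used the column totals. Tests over all genes used edgeR 4.0.16 (R 4.3.3, quasi-likelihood, TMM, at least 10 counts in total, Benjamini-Hochberg, adjusted p under 0.05), without a block; the code was tested on simulated data. Alternatives were DESeq2 1.42.0, RLE factors, filters, a block, left-out libraries and other limits. Clone labels pair the MLL-AF9-i139 libraries (correlations of deviations 0.378, 0.285 and 0.411), and times pair those of MLL-AF9-ieGFP (0.233). Depth was 35133308 to 47089725 counts, and libraries of the same condition differed by more than counting noise (chi-square per degree of freedom 13.5 to 112). Levels are given for the 30 genes with the largest mean rise and for members at an unadjusted p under 0.05 in MLL-AF9-ieGFP, at most 5 per test; Cd93, Mxd1 and the other members given by ratios were named after their values were seen. Annotation was GENCODE vM21 on GRCm38; promoter windows on chromosome 18 were left out. The values of 1 member are not reported here. Python 3.11.15 was used.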

Additional observations from a re-analysis of the deposited data

Results flagged for a closer look

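In 10 members the DOX ratio was above 0 in the 3 MLL-AF9-i139 clones and below 0 at both times in MLL-AF9-ieGFP, which is what drew attention to them. Their mean L in MLL-AF9-ieGFP, in log2 units, was Anxa2 (-0.016), Cd300ld (-0.14), D16Ertd472e (-0.094), Ing3 (-0.17), Mxd1 (-0.14), Nfil3 (-0.057), Slfn2 (-0.24), Tmem71 (-0.48), Xdh (-0.32) and Zbp1 (-0.23). The difference between the constructs was not tested, the choice of the genes fixed the direction in clones 1 and 2, and values near 0, as in Anxa2 and Nfil3, are within the spread between libraries. Of the 44 genes, 30 had an L above 0 in clone 3. In MLL-AF9-ieGFP, 26 had an L below 0 at 48 h and 28 at 72 h. The same pattern was not counted over all expressed genes, so nothing is read from the number of 10. Groups of 2 or 3 libraries were too small for a test of single outlying libraries.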

How the results depend on the processing

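In MLL-AF9-ieGFP with DOX, edgeR called 0 members and 0 genes. DESeq2 called 4 genes, no filter beyond 1 count 28, and the replicate block by culture time 123 genes and 2 members, Serpinb2 (-0.65) and Rgs18 (-0.52, or -0.51 with the block); leaving out 1 library gave between 0 and 68 genes and 0 members. For culture time, against 3 members and 1322 genes, the replicate block by DOX status gave 2512 genes and 4 members, and leaving out 1 library between 247 and 1470 genes and between 0 and 3 members; the 2 other filters, RLE factors and DESeq2 kept 3 members. For DOX in MLL-AF9-i139, against 0 members and 12 genes, DESeq2 gave 38 and 1556, no filter beyond 1 count 11 and 562, the filter of 10 counts in several libraries 0 and 6, the replicate block by clone 17 and 2381, and a fit of all 10 libraries 21 and 1234; leaving out 1 clone gave between 0 and 44 members and between 0 and 3981 genes. The rule gave 74 genes with an L of at least 1 in clones 1 and 2 and 116 with an absolute L of at most 0.5 in clone 3. It gave 50 with TMM factors (43 of them among the 44), 35 with 1 CPM added (27 of them among the 44), 53 without a minimum level and 31 at 5 CPM or more. The cause of these shifts was not tested. Among the members, the block changed no other call in MLL-AF9-ieGFP apart from Klhl24, added for culture time. No member median moved by more than the spread over the members. Depth limits genes near 1 CPM, such as Plcl1.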
